A study of Mus musculus with 16 samples.

Results

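Cyp7a1 encodes cholesterol 7α-hydroxylase, the liver enzyme that starts the main route from cholesterol to bile acids and sets its rate. It was read by 1 probe of the 9596 on the array, the only probe whose platform annotation named Cyp7a1 and no other gene (Entrez 13122, protein coding). After probes of the same gene were averaged it was 1 of 8923 features, of which 6734 were named genes and the others unnamed probes. Its log2 ratio is given here for each array and each mouse, with its spread and its correlation with other liver genes across mice.

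Liver poly(A) RNA was measured in female mice of the APOE3Leiden (E3L) strain, whose transgene encodes a human apolipoprotein E variant. Control and treated mice alike carried the transgene and ate the Western type diet W, with 15% fat and 0.25% cholesterol by weight. The treated mice also received 0.04% cafestol and 0.02% kahweol by weight, 2 diterpenes of unfiltered coffee, and the diets ran for 4 weeks from 10 weeks of age in 7 control and 8 treated mice. Each treated liver (Cy5) was hybridised against control-diet liver RNA (Cy3) on 2 arrays made from the same labelled RNAs, so the 16 arrays are 8 replicates. The labels name no single control mouse, so the test is the ratio against 0, which does not take in how control mice vary. No array had the dyes swapped, and a dye effect particular to a gene would add to every mouse alike. The mouse identifiers begin with SY (4 mice) or TP (4 mice), and the sources used here do not say what these letters mean.

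The sources used here do not say which channel is the numerator, so signs are printed as deposited. Cafestol is known to lower Cyp7a1 and to raise glutathione S-transferases in rodents, and these 2 lay on opposite sides of 0 in the deposited values. A positive value below means the side on which Cyp7a1 lay. A ratio within an array gives no level, so the levels of liver markers could not be checked. In whole liver, fewer cells of a type and less RNA per cell cannot be told apart. The arrays held 8094 to 9314 measured probes each. Mouse SY518Z stood apart from the others: its arrays carried different codes in their titles (bl7 and c3z, where every other mouse had 1 code), and they correlated at r = 0.752 across probes, against 0.843 to 0.912 in the other 7 mice.

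Bile acids are made in hepatocytes around the central vein, where Cyp7a1 is concentrated, and their synthesis is the main way in which cholesterol leaves the body. Bile acids returning from the gut switch the gene off through the nuclear receptor FXR in liver and through the hormone FGF15 from the ileum. Inflammatory cytokines and PXR ligands also lower it, the liver clock gives it a daily rhythm, and in mice oxysterols raise it through LXR. The sources used here do not give the time of day at which the livers were taken.

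Cyp7a1 was positive on 16 of 16 arrays. Mouse SY518Z was highest, with a log2 ratio of 2.14 and ratios of 4.5 and 4.3 on its arrays. TP4168 followed at 1.86 (ratios of 3.4 and 3.9) and TP4205 at 1.79 (3.4 and 3.5). TP4215 lay at 1.69, from ratios of 3.6 and 2.9 that were the farthest apart within any mouse. SY521RL lay at 1.56 (2.9 and 3.0). The 3 lowest mice were close together: TP4163 at 1.17 (2.3 and 2.2), SY524ROB+L at 1.14 (2.2 and 2.2) and SY522ROB at 1.14 (2.1 and 2.3). The mice thus ranged from a 2.20-fold to a 4.40-fold difference between the diets.

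**Figure D1:**
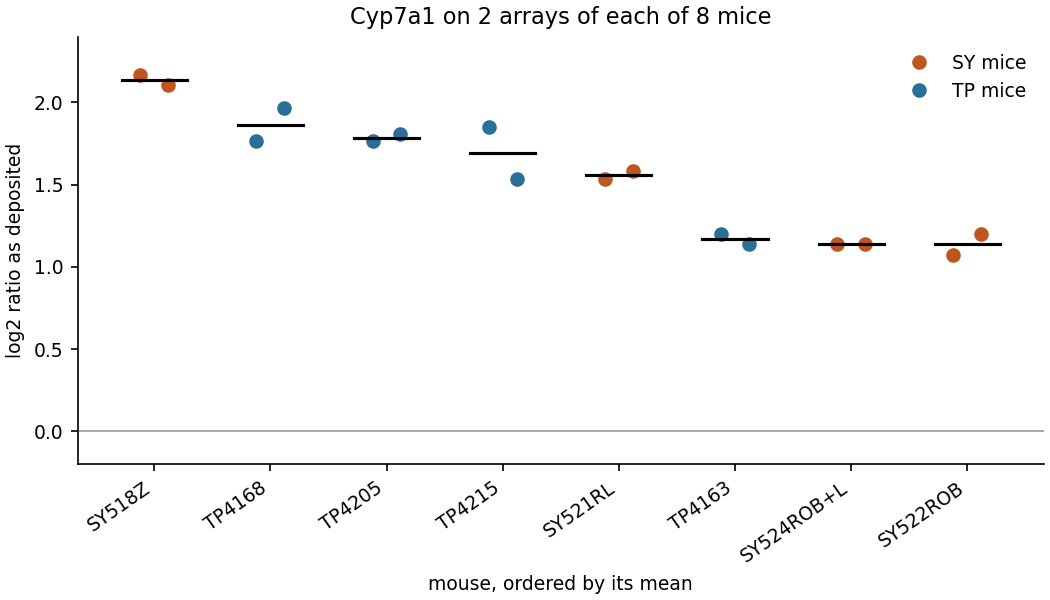
Log2 ratio of Cyp7a1 as deposited (vertical axis) on each of the 2 arrays of 8 mice (points, coloured by the letters that open the mouse identifier), with mice ordered by their mean (horizontal bars). Every point lies above 0, and in the deposited values a step of 0.39 separates the 3 lowest mice from the other 5.

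The mean log2 ratio was 1.56 ± 0.38 (SD, n = 8 mice), with a 95% confidence interval of 1.33 to 1.79 from the fit. This is a 2.95-fold difference (interval 2.52 to 3.46). The adjusted p was 1.77e-06 (limma, two-sided, Benjamini-Hochberg over 8348 genes and unnamed probes). The exact two-sided sign-flip test of the 8 mouse values gave p = 0.00781, the smallest that 256 sign flips allow. Calls were common in this comparison, since 43.4% of all features had an adjusted p under 0.05 (18.0% positive and 25.4% negative). By the signed value as deposited, 1 unnamed probe lay above Cyp7a1, which was the highest of the named genes; with the sign turned they would be the lowest. By absolute size its mean ranked 6 of all features and 5 of the named genes. In single mice its rank by absolute size was between 2 and 17 of all features, and between 2 and 12 of the named genes. A cDNA probe may also bind transcripts of close relatives, which was not tested.

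The mice differed in Cyp7a1 by more than their arrays did. The SD between the 2 arrays of a mouse was 0.102, pooled over mice, against an SD of 0.372 between mice after the arrays' part was taken out. Variation between mice made up 93.0% of the variance of a single array, and first and second arrays correlated at r = 0.921 across the 8 mice. Of all features, 99.4% had a smaller SD over mice, and the median SD was 0.106. Values were deposited as ratios with 1 decimal and 31.8% of them were 0, so small differences near 0 can be lost. How far this lowers the SD of features near 0 was not tested. The array pairs share their RNA and labelling. Their agreement says that the value of a liver's labelled RNA was repeatable, not that a second extract would repeat it. In the order of mice, the step of 0.391 from SY521RL down to TP4163 and that of 0.273 from SY518Z to TP4168 exceeded the SD between arrays. TP4215 lay 0.131 above SY521RL, and the remaining neighbours were 0.0015 to 0.0944 apart, within or close to that SD. The SD over all features of a mouse, which ranged from 0.168 to 0.246, correlated with its Cyp7a1 at r = 0.61, and the part of this in the order of mice was not tested.

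The identifier letters did not separate the mice. The SY mice ranged from 1.14 to 2.14 (mean 1.49 ± 0.47, SD, n = 4) and the TP mice from 1.17 to 1.86 (1.63 ± 0.31, n = 4), so the groups overlapped. The difference of SY minus TP was -0.14, with a 95% confidence interval of -0.58 to 0.31. Its adjusted p was 0.713 (limma), with 5.70% of all features called in this comparison, and the exact permutation test over the 70 splits gave p = 0.686 (two-sided). Scaling the arrays to a common SD or giving them the same quantiles turned the sign (0.14 and 0.28), again with no call. The array code nearly follows the letters, so the code and the letters cannot be told apart.

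The other enzymes and carriers of bile acid synthesis lay mostly on the Cyp7a1 side and much closer to 0. Of 18 listed genes, 10 were tested; the other 8, Cyp8b1 and Cyp27a1 among them, were not analysed here. Of the 10, 7 were called positive, 1 was called negative and 2 were not called, with a median of 0.29 against -0.02 over all features. The shares called over all features were 18.0% positive and 25.4% negative. The genes of the peroxisomal steps that shorten the side chain are given first. Scp2, the sterol carrier and thiolase of the last of these steps, had a log2 ratio of 0.60 ± 0.19 (SD, n = 8), from 0.38 in TP4205 and SY524ROB+L to 0.89 in SY518Z. Slc27a2, an acyl-CoA synthetase, had 0.57 ± 0.22 (0.26 to 0.92), and Amacr, the racemase that readies the side chain, had 0.42 ± 0.20 (0.20 to 0.85). All 8 mice were positive for these 3 genes (limma, adjusted p between 1.28e-05 and 1.68e-04).

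Conjugation genes were positive as well. Slc27a5, which links bile acids to coenzyme A, had a log2 ratio of 0.50 ± 0.19 (adjusted p = 3.89e-05, limma). Baat, which then joins them to taurine or glycine, had 0.30 ± 0.10 (6.42e-05), and both were positive in 8 of 8 mice. Abcd3, a peroxisomal importer, had 0.29 ± 0.22 (positive in 7 mice, with SY522ROB at 0.00), and Hsd17b4, the bifunctional enzyme of side chain oxidation, had 0.26 ± 0.21 (positive in 7, with TP4163 at 0.00). Genes of oxysterol metabolism lay closer to 0. Cyp7b1, the oxysterol 7α-hydroxylase of the alternative route, was called negative at -0.17 ± 0.12 (adjusted p = 0.0041, limma) and was above 0 in 0 of 8 mice. Cyp39a1, another oxysterol 7α-hydroxylase, had 0.18 ± 0.26 (adjusted p = 0.0654). It passed the threshold, on the positive side, without SY522ROB (adjusted p = 0.031), with arrays centred on their mean (0.0424) and with the mouse as a random block (0.0277). Ch25h, which makes an oxysterol, had 0.02 ± 0.16 (n = 7 mice, adjusted p = 0.799). With the control RNA given the spread of a pool of 7 mice, Hsd17b4 and Cyp7b1 were no longer called (adjusted p = 0.06 and 0.0512, limma). In the 4 SY mice alone, 4 of the 10 genes were called positive and none negative. The shares of all features called in SY mice alone or with that pool spread are not given here.

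**Figure D2:**
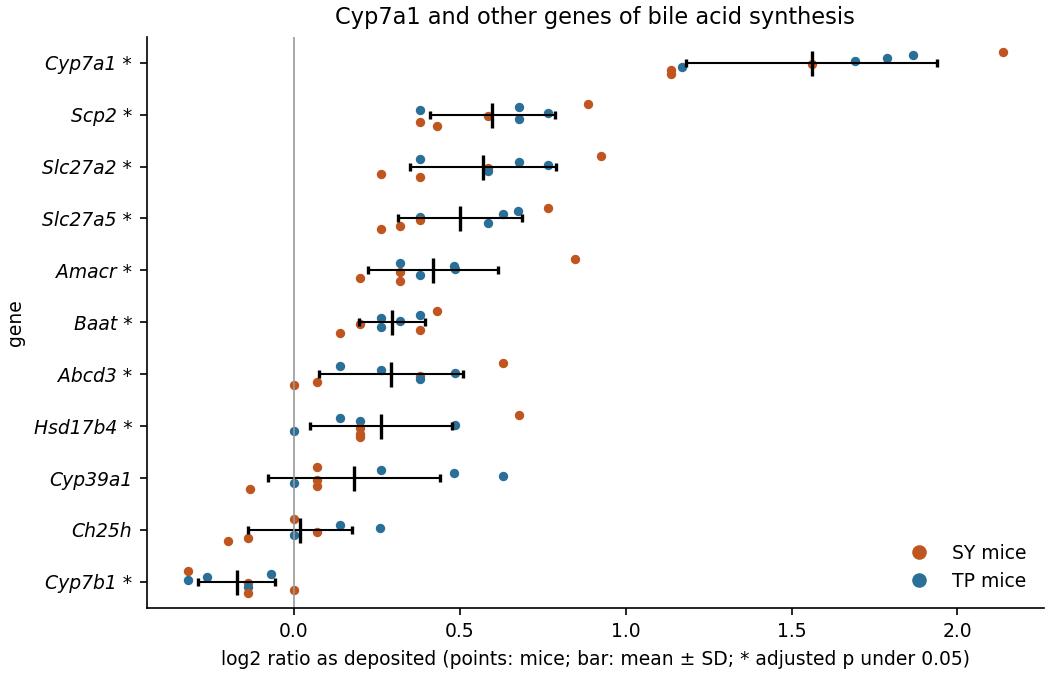
Log2 ratio as deposited (horizontal axis) of Cyp7a1 and 10 other genes of bile acid synthesis in 8 mice (points, coloured by identifier letters), with the mean and SD (black) and an asterisk for an adjusted p under 0.05. The lowest mouse of Cyp7a1 (1.14) lies to the right of the highest mouse of every other gene (0.92 in Slc27a2).

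The log2 ratio of Cyp7a1 exceeded that of each of these 10 genes in every measured mouse. The mean gap ran from 0.96 ± 0.31 (SD, n = 8) over Scp2 to 1.73 ± 0.46 over Cyp7b1. The exact sign-flip test gave p = 0.00781 for 9 of the 10 genes and p = 0.0156 for Ch25h with its 7 mice, each the smallest its design allows (0.00868 and 0.0156 adjusted over the 10 comparisons). These are differences between ratios, not between levels. By signed value Cyp7a1 ranked between 1 (SY518Z) and 8 (TP4163) from the top of all features in every mouse. Nearly any gene would therefore give these p-values, which are not particular to bile acid synthesis.

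Genes that act on Cyp7a1 (transcription factors, hormones and signals) were called on both sides of 0. Of 46 genes, 25 were on the array and 23 were tested: 6 were called positive, 5 negative and 12 not called, with a median of 0.02. Over all features 18.0% were called positive and 25.4% negative. The bile acid receptor FXR (Nr1h4) had a log2 ratio of 0.19 ± 0.15 (SD, n = 8; adjusted p = 0.00515, limma), with TP4163 and SY522ROB at 0. The xenobiotic receptor PXR (Nr1i2) had 0.22 ± 0.20 (adjusted p = 0.00938) and was positive in 6 mice. Ppargc1a, a coactivator induced by fasting, had 0.20 ± 0.05, with all 8 mice between 0.13 and 0.28. Bhlhe40, a clock repressor, had 0.26 ± 0.21, and TP4205 was highest at 0.68.

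On the other side, Fgf15, the ileal hormone that lowers Cyp7a1, had a log2 ratio of -0.18 ± 0.07 (adjusted p = 6.64e-04, limma) and was positive in 0 of 8 mice. Only liver RNA was measured, so this value does not read Fgf15 in the ileum. The cytokine Il1b had -0.18 ± 0.19 (adjusted p = 0.0248), and its call was lost without SY518Z or without any of the 4 TP mice (adjusted p from 0.0517 to 0.0655). The remaining called negative genes, named after their values were seen, were the deacetylase Sirt1 (-0.15 ± 0.17), the clock receptor Nr1d2 (-0.12 ± 0.07) and the nuclear receptor Rora (-0.09 ± 0.09). The negative count fell from 5 to 2 without SY518Z, TP4215 or TP4205, and to 3 without TP4168 or TP4163. With the control RNA given the spread of a pool of 7 mice, 1 regulator was called positive and 1 negative (share of all features not given here), and Nr1h4, Nr1i2, Bhlhe40 and Il1b were not called. Ratios of this size were few steps from 0, since values were deposited as ratios with 1 decimal and the smallest step on an array was 0.14.

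**Figure D3:**
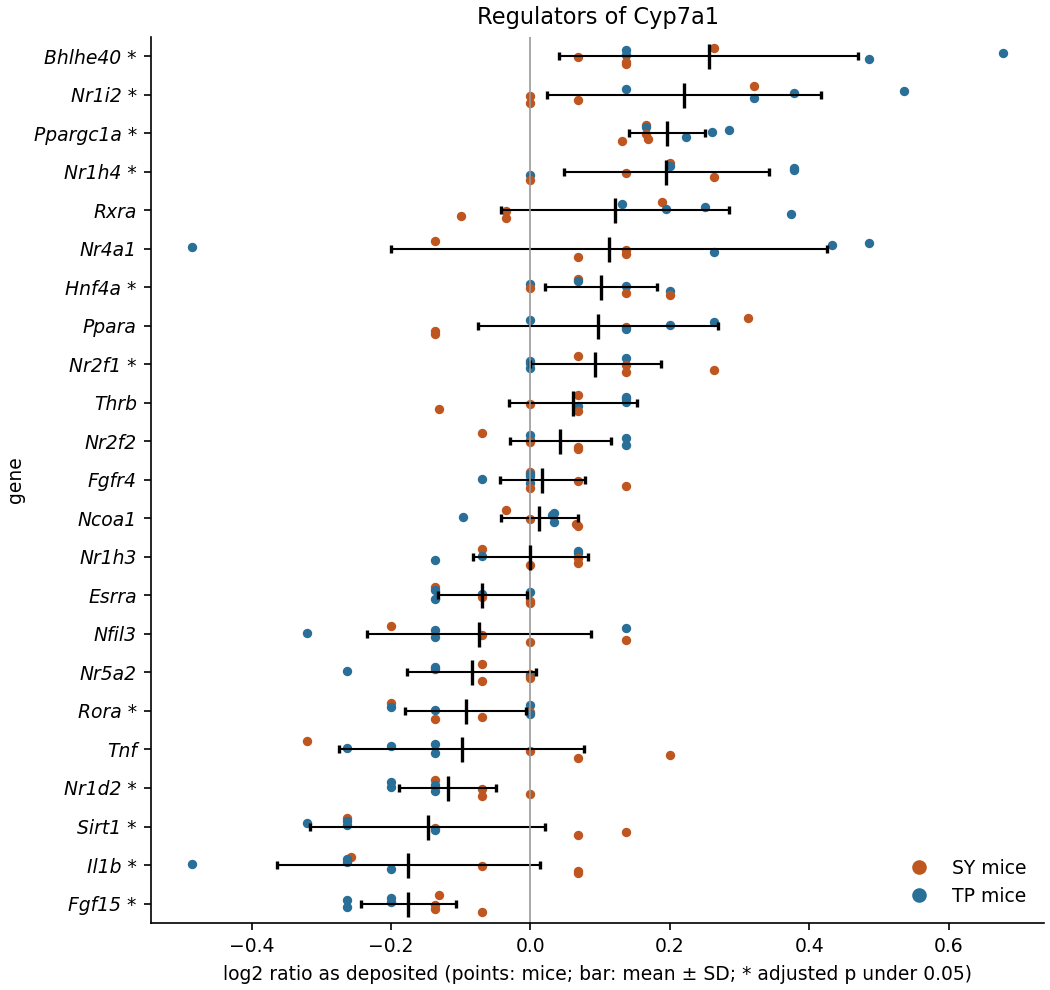
Log2 ratio as deposited (horizontal axis) of the 23 tested regulators of Cyp7a1 in 8 mice (points, coloured by identifier letters), with the mean and SD (black) and an asterisk for an adjusted p under 0.05. All means lie between -0.18 and 0.26, against 1.56 for Cyp7a1.

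Target genes of FXR were called on both sides of 0, and those of LXR mostly on the negative side. For the counts below, the shares called over all features were 18.0% positive and 25.4% negative. Of 10 tested genes that FXR induces, 4 were called positive and 2 negative (median 0.01). The positive ones included Slc27a5 and Baat, already counted above with bile acid synthesis. The fibrinogen chain Fgb, also in this list, had a log2 ratio of 0.23 ± 0.11 (SD, n = 8). Pltp, a phospholipid transfer protein in this list and in that of LXR, had -0.66 ± 0.15. Of 8 tested genes that LXR induces, 1 was positive and 6 were negative (median -0.26). The positive gene was the sterol exporter Abcg5 (0.44 ± 0.16, 8 of 8 mice), and the negative ones included lipoprotein lipase Lpl (-0.47 ± 0.24) and Apoe (-0.41 ± 0.12). Of 5 bile acid and sterol transporters, 2 were called positive, Abcg5 and the canalicular exporter Abcc2 at 0.12 ± 0.13, whose call was lost without any of 6 mice (SY521RL, SY518Z, TP4168, SY524ROB+L, SY522ROB or TP4163). Abcb4, Abcc3 and Abcc4 were not called. Of 15 genes that make or take up cholesterol, 1 was positive (Sc5d, 0.12 ± 0.12), 2 were negative (Ebp, -0.39 ± 0.14, and Npc2, -0.30 ± 0.20) and 12 were not called. Sc5d was not called without SY518Z, TP4168, TP4205 or TP4163, nor were Sc5d and Abcc2 under a control RNA with the spread of a pool of 7 mice (adjusted p = 0.147 and 0.195, limma), and the negative count rose to 4 without SY524ROB+L and to 5 without SY522ROB.

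Clock genes held 5 positive and 2 negative calls among 10 tested, with a median of 0.06. For this count and those of the lists below, 18.0% of all features were called positive and 25.4% negative. The period gene Per1 had a log2 ratio of 0.17 ± 0.12 (SD, n = 8), and Usp2, a ubiquitin protease under clock control, had 0.18 ± 0.22, a call lost without SY518Z or without any of the 4 TP mice. The positive count was 3 without TP4215, TP4168, TP4205 or TP4163. The negative count was 1 without SY518Z, TP4215, TP4205 or SY522ROB. With the control RNA given the spread of a pool of 7 mice, 0 clock genes were called positive and 0 negative (adjusted p = 0.0618 for Per1 and 0.19 for Usp2, limma). That spread widens the standard error of every feature, and the share of all features called with it is not given here. Pericentral genes, those of the liver zone in which Cyp7a1 is concentrated, were called positive in 7 of 11, with the other 4 not called (median 0.38). They included ornithine aminotransferase Oat (0.84 ± 0.25), regucalcin Rgn (0.73 ± 0.27) and carbonic anhydrase Car3 (0.66 ± 0.26). Periportal genes were positive in 3 of 8 and negative in 4 (median 0.05), with Igfbp2 at 0.46 ± 0.18 and the P450 gene Cyp2f2 at -0.60 ± 0.38. Acute phase genes were positive in 6 of 13 and negative in 4 (median 0.09). Glutathione S-transferases and other NRF2 targets were negative in 13 of 14, with Gsta3 not called (median -0.88), and Gstm1 was lowest at -2.48 ± 0.23.

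Across the 8 mice no feature followed Cyp7a1 after adjustment. Limma, with the Cyp7a1 value of the mouse as a continuous term, called 0 of 8347 other features (0%; smallest adjusted p = 0.142), and 986 features (11.8%) had an unadjusted p under 0.05, 404 with a positive and 582 with a negative slope. By exact permutation of Pearson r over 40320 pairings, 745 of 8055 features complete in 8 mice had p under 0.05 and 0 passed adjustment (smallest adjusted p = 0.40), nor did any by Spearman rho (0 features, smallest adjusted p = 0.477). The median r over all features was -0.08, and 45.2% of features had an r above 0. What follows therefore describes these 8 mice, and each r shares the Cyp7a1 values, the arrays and the control RNA of every other. In an alternative pairing that took Cyp7a1 from first arrays and the other genes from second arrays, and also without TP4215, limma called 1 feature, the same unnamed probe (r = 0.97 and 0.96; adjusted p = 0.0153 and 0.0317). After quantile normalization between arrays it called 1 other feature, Acadm, an enzyme of fatty acid oxidation (r = 0.99, adjusted p = 0.0321). Both scalings also moved Cyp7a1 itself: its mouse values correlated with the deposited ones at r = 0.82 after scaling to a common SD and at 0.48 after quantile normalization, which sets each value by its rank on the array.

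The genes most like Cyp7a1 were taken among 403 named genes with values in 8 mice, an SD over mice of at least 0.2 and an r of at least 0.5 between first and second arrays. They were chosen for their r, so it is a description here. The 10 highest ran from r = 0.78 to 0.85 over 8 mice. D6Wsu163e had r = 0.85 and rho = 0.90, with r = 0.75 without SY518Z. Its SY518Z value came from the bl7 array alone, and its r between arrays rests on fewer than 6 mice. Ces1d, a carboxylesterase, had r = 0.83, with log2 ratios of 0.63 in SY518Z, 0.38 in TP4168, 0.14 in TP4205 and TP4215, 0.07 in SY521RL, 0.20 in TP4163, -0.07 in SY524ROB+L and -0.14 in SY522ROB. Cyp2a12, a steroid-oxidising P450 gene, had r = 0.82, Slc1a2, the glutamate transporter of pericentral hepatocytes, had 0.81, and the transcription factor gene Runx3 had 0.81. Khk, which phosphorylates fructose, had 0.81. The remainder were Tdo2 (tryptophan dioxygenase, 0.79), Sult1d1 (a sulfotransferase, 0.79), Uox (urate oxidase, 0.79) and Rida (a deaminase, 0.78).

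Genes with a high r lay on either side of 0. Of these 10 genes, Slc1a2 (0.58 ± 0.23, SD, n = 8) and Uox (0.23 ± 0.22) were called positive, Runx3 (-0.25 ± 0.21), Tdo2 (-0.27 ± 0.22) and Rida (-0.23 ± 0.31) were called negative, and the other 5 were not called. Ces1d was called positive without SY524ROB+L or SY522ROB (adjusted p = 0.0434 and 0.0322, limma), and Cyp2a12 was called negative without SY518Z (adjusted p = 0.0191). For the negative genes a positive r means that their ratio tended to be higher in mice with higher Cyp7a1. With the control RNA given the spread of a pool of 7 mice, Uox, Runx3, Tdo2 and Rida were not called (adjusted p = 0.104, 0.0639, 0.0564 and 0.219, limma). Rida was -0.49 to -0.14 in 7 mice and 0.49 in SY518Z, and its call was lost on leaving out any single mouse other than SY518Z (adjusted p from 0.0725 to 0.115). Without SY518Z and SY522ROB, the mice farthest from the Cyp7a1 median, the r of the 10 genes lay between 0.58 for Khk and 0.95 for Sult1d1. With the identifier letters taken out, it lay between 0.80 for Khk and 0.92 for Sult1d1. It lay between 0.36 for Runx3 and 0.76 for Cyp2a12 after scaling to a common SD, and between -0.03 for Sult1d1 and 0.55 for D6Wsu163e after quantile normalization.

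The 10 lowest ran from r = -0.95 to -0.76. Col4a2, a chain of basement membrane type IV collagen, was lowest with r = -0.95 and rho = -0.97. Its log2 ratio was -0.67 in SY518Z, -0.54 in TP4168, -0.43 in TP4205, -0.38 in TP4215, -0.26 in SY521RL and TP4163, -0.07 in SY524ROB+L and -0.14 in SY522ROB. The order of its values was the reverse of the Cyp7a1 order except in the last pair, whose Cyp7a1 values were 0.0015 apart, and in SY521RL and TP4163. These mice had the same Col4a2 value, though their Cyp7a1 values were 0.391 apart. The exact permutation p was 9.92e-05 for r and 4.96e-04 for rho, with 0.40 and 0.477 after adjustment over 8055 features (0.205 by limma). It remained at -0.90 without the 2 farthest mice, -0.92 without SY518Z and -0.95 within the identifier series, and was -0.78 after scaling to a common SD and -0.41 after quantile normalization. Over the 10 genes r lay between -0.78 and -0.33 after scaling, and between -0.41 and 0.02 (Nid1) after quantile normalization.

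Col1a1, a chain of fibrillar type I collagen, had r = -0.80, with log2 ratios from -0.80 in SY518Z to 0.00 in the 2 lowest Cyp7a1 mice. Its r moved to -0.55 without the 2 farthest mice. Mmp7, a matrix protease, had r = -0.80 and Nid1, the basement membrane protein nidogen, had r = -0.76. Col4a2 (-0.34 ± 0.20, SD, n = 8), Col1a1 (-0.31 ± 0.28), Mmp7 (-0.28 ± 0.25), Nid1 (-0.50 ± 0.27) and the muscle ankyrin repeat gene Ankrd1 (-0.22 ± 0.21) were also called negative. The pooled control spread left Col1a1, Mmp7 and Ankrd1 not called (adjusted p = 0.0766, 0.0768 and 0.104, limma). The caspase gene Casp12 (r = -0.80), the kinase gene Pask (-0.78), the neutrophil chemokine Cxcl5 (-0.76), the surface protein gene Cd24a (-0.76) and the secretory protein gene Crisp2 (-0.76) were not called. Casp12, Pask, Cxcl5 and Crisp2 had close values in each mouse: all were at or below -0.20 in SY518Z, TP4168, TP4205 and TP4215, and at or above 0.14 in SY524ROB+L and SY522ROB.

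**Figure D4:**
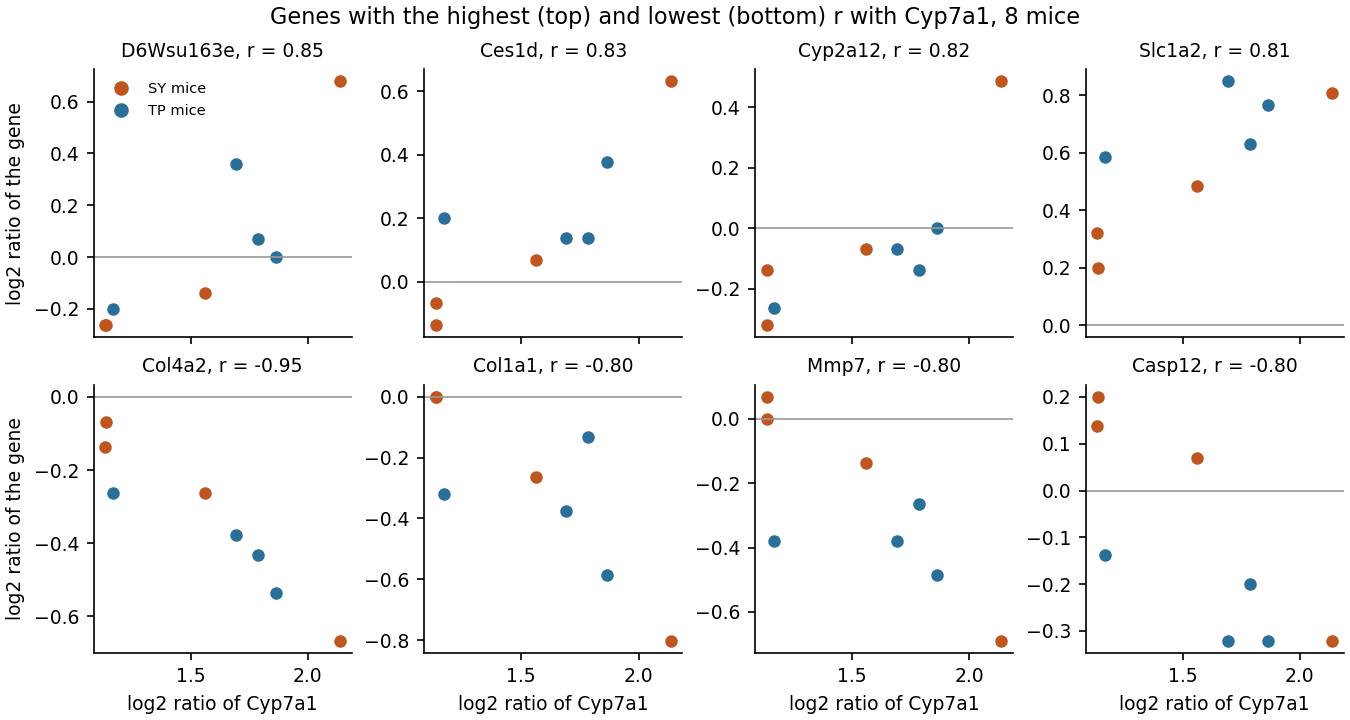
Log2 ratio as deposited of the 4 genes with the highest r (top row) and the 4 with the lowest r (bottom row) against that of Cyp7a1, with 1 point per mouse coloured by identifier letters and vertical axes that differ between panels. The genes were taken among the 403 that passed the limits on SD and on r between arrays. Mouse SY518Z is the rightmost point of every panel, and Col4a2 (r = -0.95) descends through nearly all mice.

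The r of bile acid synthesis genes with Cyp7a1 was above 0 in 9 of 10, with a median of 0.60, and no gene passed adjustment. Amacr had r = 0.75 and rho = 0.63 (exact p = 0.0182, adjusted p = 0.515 over 8055 features), Slc27a5 had r = 0.73 and rho = 0.92, and Slc27a2 had r = 0.68. Cyp7b1 was the exception at r = -0.63. The median r of the list was 0.42 without SY518Z, 0.39 without the 2 farthest mice, 0.51 after scaling to a common SD and 0.08 after quantile normalization between arrays. The last setting turned the sign of Slc27a5 (-0.39) and Baat (-0.26). Regulators had a median r of -0.36, and 15 of 23 were below 0, where 45.2% of all features had an r above 0. The regulator median was -0.26 without SY518Z, -0.18 without the 2 farthest mice, -0.09 after scaling and -0.24 after quantile normalization. Sirt1, named after its value was seen, had r = -0.83, with a log2 ratio of -0.26 in SY518Z and TP4168 and of 0.14 and 0.07 in SY524ROB+L and SY522ROB. The r of Sirt1 was -0.59 after scaling and -0.11 after quantile normalization. FXR (Nr1h4) had r = 0.51, which was 0.22 and 0.11. Fgf15 had r = -0.18, which turned to 0.26 and 0.78.

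Cell type markers differed in the side of their r, and none passed adjustment. Among all features 45.2% had an r above 0, 18.0% were called positive and 25.4% negative. Hepatocyte markers had r above 0 in 10 of 11, with a median of 0.63, of which the asialoglycoprotein receptor gene Asgr1 (r = 0.85, rho = 0.92; 0.67 after scaling and 0.40 after quantile normalization) was highest. Their mean log2 ratio ranged from -0.03 in SY522ROB to 0.35 in SY518Z, and 5 were called positive and 2 negative. Stellate cell and fibroblast markers had r below 0 in 11 of 11, with a median of -0.58, and their mean ranged from -0.43 in SY518Z to -0.03 in SY522ROB, with 6 of 11 called negative and 5 not called. Bile duct markers had r below 0 in 5 of 5 (median -0.59), their mean ranged from -0.31 to 0.15, and 1 was positive and 2 were negative. The median r of hepatocyte markers was 0.44 without SY518Z, 0.28 after scaling and 0.02 after quantile normalization. That of stellate markers was -0.32, -0.57 and -0.17 under these settings, and that of bile duct markers -0.48, -0.24 and -0.13. With the control RNA given the spread of a pool of 7 mice, 5 hepatocyte markers were called positive and 1 negative, 2 stellate markers negative, and 0 bile duct markers positive and 2 negative. How many of all features were called with that spread is not given here. The part of cell type markers in the ratios and in the correlations above was not tested.

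Lists of the other cell types had medians between these. The median r was -0.06 for 14 Kupffer cell and macrophage markers (2 called positive and 7 negative; mean -0.31 to 0.13 by mouse). For 6 endothelial markers it was -0.22 (2 negative, 4 not called; mean -0.14 to -0.05). For 8 lymphocyte markers it was -0.26 (5 negative, 3 not called; mean -0.16 to -0.02), and for 5 neutrophil markers -0.41 (2 negative, 3 not called; mean -0.11 to 0.04). The neutrophil count fell to 1 without SY518Z or TP4205. Over all features 25.4% were called negative. Under the pooled control spread, 1 lymphocyte marker and 0 neutrophil markers were called negative, and the lymphocyte median r was -0.04 after scaling and 0.01 after quantile normalization. The 25.4% is without that spread, and no share with it is given here.

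Pericentral genes had r above 0 in 10 of 11 with a median of 0.57, which was 0.33 without SY518Z, and periportal genes had a median of 0.35, which was 0.08 without it. Glutathione S-transferases and NRF2 targets had a median r of -0.05. Gstm1 itself had r = 0.20 and rho = 0.07 (exact p = 0.613 for r). Median r was -0.37 for clock genes, -0.44 for cholesterol supply, -0.13 for acute phase genes, -0.36 for transporters, 0.11 for genes that FXR induces and 0.05 for those that LXR induces. Without SY518Z the medians of some lists changed side or size: -0.26 for genes that FXR induces, 0.42 for those that LXR induces, 0.31 for Kupffer cell and macrophage markers, -0.28 for glutathione S-transferases and NRF2 targets and -0.17 for clock genes. After scaling and after quantile normalization the median was -0.10 and -0.01 for cholesterol supply, 0.01 and -0.05 for transporters, 0.17 and 0.30 for glutathione S-transferases and NRF2 targets, and 0.11 and -0.16 for genes that LXR induces. Pericentral genes had 0.47 and 0.26 under these settings. Among the genes that LXR induces, Apoe had r = 0.90 and rho = 0.86 (exact p = 0.00546, adjusted 0.47), and it was negative in all 8 mice, from -0.26 in SY518Z and TP4168 to -0.58 in TP4163. Apoe had r = 0.89 without the 2 farthest mice, 0.59 after scaling and 0.55 after quantile normalization, and whether its probe binds transcripts of the human transgene was not tested.

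**Figure D5:**
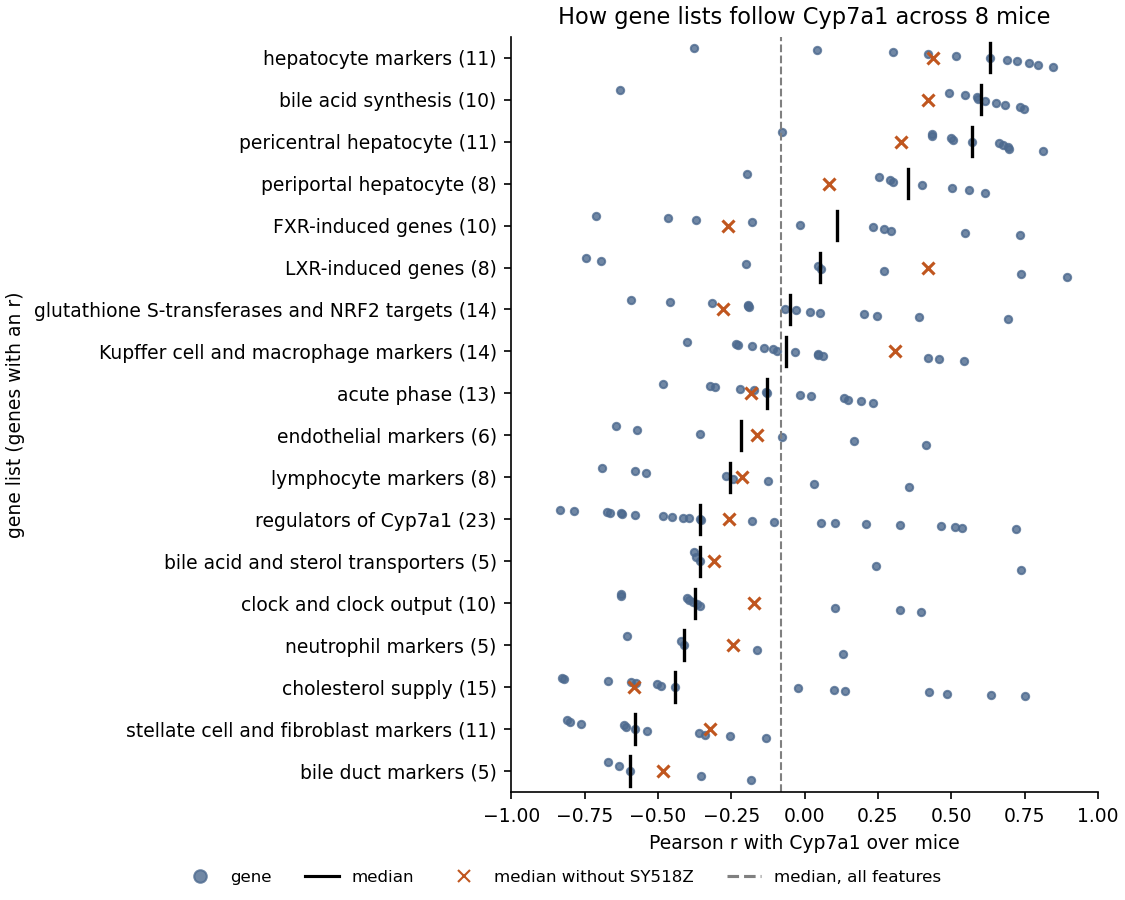
Pearson r with Cyp7a1 over mice (horizontal axis) for each gene of 18 lists (points, with the number of genes in brackets), with the median of each list (black bar), its median without mouse SY518Z (cross) and the median over all features (dashed line, -0.08). Hepatocyte markers (median 0.63) and bile acid synthesis (0.60) head the lists, stellate (-0.58) and bile duct markers (-0.59) end them.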

How the data were processed

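The 16 arrays (cDNA probes, 2 colours) compared control-diet liver RNA with each of 8 treated livers, on 2 arrays per liver. The values are log2 ratios as the authors deposited them. How they were normalized and background-corrected, why some are blank and which channel is the numerator: these points are not given in the labels. All 144660 values are logs of ratios (or inverse ratios) rounded to 1 decimal, with a tolerance of 0.01 on the ratio times 10, so 31.8% were 0 and the smallest step was 0.14. Every array had a median of 0, and values were used as deposited. Genes were named from the platform annotation: 7407 probes had 1 symbol, 437 several and 1752 none, and 7330 matched a RefSeq table by Entrez identifier, with 0 symbols changed.

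Probes of a gene were averaged, then the 2 arrays of a mouse. Features with values in at least 6 mice (8348) were tested with limma 3.58.1 in R 4.3.3 (two-sided moderated tests from lmFit and eBayes, called at a Benjamini-Hochberg adjusted p under 0.05), against 0, between SY and TP mice, and with the Cyp7a1 value as a continuous term. Exact permutation tests used all sign flips, splits or pairings of the mice. The p-values against 0 measure the spread among treated mice only, and the number of arrays limits the precision. Named genes were Cyp7a1, every tested gene of bile acid synthesis, up to 6 called regulators and up to 4 called members of each other list by largest mean (2 uncalled where none was called), and the 10 highest and 10 lowest r with Cyp7a1 under the limits given in the text. The members and the 18 gene lists were chosen with earlier results of these data known. The scripts were tested on simulated data. Figures were drawn with matplotlib 3.10.9.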

Additional observations from a re-analysis of the deposited data

Results flagged for a closer look

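Among 88 sets of mouse values examined, 5 held a mouse far from the other 7, close to the share that chance gives (about 1 in 20). The sets share mice and arrays, and in all 5 the mouse was SY518Z, which had the highest Cyp7a1. Its log2 ratio was 0.85 for the bile acid racemase gene Amacr, 0.26 for the periportal P450 gene Cyp2f2, 0.85 for the asialoglycoprotein receptor gene Asgr1, 0.49 for Cyp2a12 and 0.49 for Rida. In each set it was the highest value. The Cyp7a1 values held no mouse far from the others. Cyp2a12 and Rida had been chosen for a high r with Cyp7a1, which favours a high value in SY518Z.

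Of 86 named genes, 5 differed between SY and TP mice (limma, adjusted p under 0.05), against 5.70% of all features. SY minus TP was -0.32 for the cholesterol carrier Npc2, -0.32 for the clock-controlled protease Usp2, 0.31 for Gstm6, 0.48 for Gstm2 and 0.60 for the tight junction gene Cldn4. Cyp7a1 was not among them.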

How the results depend on the processing

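The Cyp7a1 log2 ratio kept its sign and its call in 22 of 22 alternatives, with values of 1.48 to 1.63 and adjusted p of 5.2e-12 to 0.0111 (limma). These were single arrays, arrays blocked by mouse, other centring, scaling and filters, robust moderation, leaving out each mouse (1.48 to 1.62), each identifier series alone, and control RNA given the spread of a pool of 7 mice (adjusted p = 1.23e-04). SY minus TP for Cyp7a1 turned to 0.142 after scaling to a common SD and to 0.275 after quantile normalization, and was not called in any of 13 alternatives; leaving out each mouse gave -0.350 to -0.0164. The count of features that follow Cyp7a1 was 0 in 16 of 19 alternatives. It was 1 with Cyp7a1 from first and other genes from second arrays and 1 after quantile normalization, and leaving out each mouse gave 0 to 1. Of the genes in the pathway lists, 72 were called. In SY mice alone 41 were called, and 41 with control RNA as a pool of 7 mice, and leaving out each mouse gave 61 to 77. No shares of all features called in these settings are given here. The alternatives for the lists by identifier series and by pooled control, scaling in the correlations, and the c3z array of SY518Z alone were chosen after seeing the data. No paired analysis was possible because no control mouse has an array of its own.

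Among 85 named genes, 1623 of 1781 alternative values kept sign and call, 123 lost and 12 gained a call, and 23 turned sign with no call on either side. In SY mice alone the turned values were -0.0673 for Ch25h, -0.0501 for Sult1d1, 0.0214 for Casp12, 0.0199 for Pask, 0.0223 for Cxcl5, 0.0571 for Cd24a and 0.0829 for Crisp2. After scaling and after quantile normalization they were -0.00746 and -0.00844 for D6Wsu163e and 0.0130 and 0.0168 for Cd24a. Centring gave 0.00591 for Cd24a, and the c3z array of SY518Z alone gave 0.00213 for Cd24a. In the latter setting D6Wsu163e had -0.0620, the same as without SY518Z, because that array held no value for this gene. Leaving out a mouse gave -0.0219 to 0.0545 for Ch25h, -0.0620 to 0.0725 for D6Wsu163e, -0.0221 to 0.0772 for Khk and -0.0664 to 0.0565 for Cd24a. Among 507 alternative values of r, 6 turned sign: after quantile normalization, Sult1d1 (-0.0256), Nid1 (0.0172), Ch25h (-0.00143), Slc27a5 (-0.395) and Baat (-0.265), and, without the 2 farthest mice, Baat (-0.00368). The causes were not tested.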
